A study of Mus musculus with 4 samples.

Results

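The 7 keratins described here are the usual lineage markers of the mammary epithelium, Krt5, Krt14 and Krt17 for the basal layer and Krt7, Krt8, Krt18 and Krt19 for the luminal layer. They were chosen by gene symbol with no measured value in the rule, and they are 7 of the 32285 genes and of the 49 keratin genes listed in both count matrices. Keratins are the intermediate filament proteins of epithelia. A type I keratin (here Krt14, Krt17, Krt18 and Krt19) pairs with a type II keratin (here Krt5, Krt7 and Krt8) to build a filament. In the mammary gland, Krt5 with Krt14 typifies the contractile basal (myoepithelial) cells, and Krt8 with Krt18 the luminal cells that line the duct. Krt17 is also known from epithelia that respond to injury, and Krt7 and Krt19 from ductal epithelia.

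Organoids came from mammary fat pads, with lymph nodes removed, of virgin mice aged 8 to 9 weeks, whose strain and genotype the labels do not give. They were grown in Matrigel (MATR), a soft matrix (SOFT), collagen (COL1) or a stiff matrix (STIFF), and single cells were profiled by droplet-based 3′ RNA sequencing. Cells of each condition were marked with hashtag antibodies, and COL1 was loaded with STIFF on 1 channel and MATR with SOFT on the other. Each condition was 1 culture, so no difference between conditions could be tested, and every interval below covers counting error only. A difference between COL1 and MATR, or between STIFF and SOFT, is also one between channels, and the 2 cannot be told apart. The labels do not say which hashtag marked which condition. This pairing was taken from how the deposited matrices are named, and if that order were wrong, COL1 would trade places with STIFF and MATR with SOFT.

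After filtering, 9568 and 7945 cells remained, with a median of 10087.5 and 12626 unique molecules (UMIs) a cell. Hashtags placed 1563 cells in COL1, 2451 cells in STIFF, 2333 cells in MATR and 1941 cells in SOFT, and 5249 and 3394 cells of the 2 channels carried no tag above background. Of the kept barcode sequences, 19 occurred in both channels. Cells were clustered without any keratin gene, so that the clusters do not rest on the genes described. Basal-like cells had all 10 basal markers above 20 CPM (UMIs of a gene relative to the summed UMIs of the class), from Acta2 (2841 CPM) to Cdh3 (37.5 CPM), and gave 218 cells in COL1, 167 cells in STIFF, 171 cells in MATR and 75 cells in SOFT. Luminal-like cells positive for hormone receptors (HR-positive) numbered 524, 1075, 1242 and 1020 in the same order, and HR-negative luminal-like cells 183, 188, 319 and 214. Untagged cells were uneven over classes, with 3037 HR-negative, 1376 basal-like and 1620 HR-positive cells beside 904, 631 and 3861 tagged ones. Tagged HR-negative cells had a median of 23700.5 UMIs, against 9915.5 and 12584 over all such cells of the 2 channels. For basal-like cells it was 11646, against 8586 and 8303. Values by condition rest on the tagged cells. Cluster 9, with 80, 73, 28 and 115 cells, stayed unnamed, because its 10 leading genes held as many basal as HR-negative markers. It carried the HR-negative marker list at 21662 CPM (41773 CPM in HR-negative cells) and the basal list at 1136 CPM (6795 CPM in basal-like and 160 CPM in HR-negative cells). Of the 10 basal markers, 2 reached 20 CPM in cluster 9, the same number as in HR-negative cells. Fibroblast-like cells held the basal list at 3265 CPM, with 6 genes at 20 CPM. By condition the basal list in cluster 9 was 627 CPM in COL1, 2196 CPM in STIFF, 360 CPM in MATR and 404 CPM in SOFT. Immune-like (828 cells) and fibroblast-like (497 cells) cells, which should lack epithelial keratins, serve as the background for RNA from other cells. The 236 immune-like cells with at least 10 UMIs of the 7 keratins had a median doublet score of 0.143, against 0.0378 over the class. For 138 such fibroblast-like cells it was 0.132, against 0.0527. Free RNA and doublets were not told apart in this background.

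The members lie in 2 keratin gene clusters. Krt19 (chr11:100140810-100145926), Krt14 (chr11:100203162-100207510) and Krt17 (chr11:100256215-100261029) are neighbours on chromosome 11. Krt7 (chr15:101412403-101427806), Krt5 (chr15:101707069-101712905), Krt8 (chr15:101996711-102004342) and Krt18 (chr15:102028216-102032026) lie on chromosome 15, all in the GRCm38.p6 build. Krt8 and Krt18, which form 1 filament pair, are 23.9 kb apart with 0 protein-coding genes between them, while 1 lies between Krt14 and Krt17 (48.7 kb).

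RefSeq promoter entries were given for 5 of the 7 members, and 4 are shown because the results turn on the Krt5 and Krt14 pair against the Krt8 and Krt18 pair. Each is the 250 bases before the annotated start, 5′ to 3′ on the strand of the gene, from RefSeq on GRCm38.p6. Krt5 (chr15:101712906-101713155) and Krt8 (chr15:102004343-102004592) are read from the minus strand, and so is Krt14 (chr11:100206031-100206280), whose start lies inside its listed gene span. Krt18 (chr15:102027966-102028215) is read from the plus strand. Capitals mark the only searched motif found in these 4 windows, CACCTG or its reverse complement.
Krt5: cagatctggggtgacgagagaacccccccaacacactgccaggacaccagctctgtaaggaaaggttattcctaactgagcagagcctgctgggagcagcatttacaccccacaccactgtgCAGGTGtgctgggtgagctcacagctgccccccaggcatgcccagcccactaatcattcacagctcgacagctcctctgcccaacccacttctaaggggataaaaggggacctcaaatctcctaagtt
Krt14: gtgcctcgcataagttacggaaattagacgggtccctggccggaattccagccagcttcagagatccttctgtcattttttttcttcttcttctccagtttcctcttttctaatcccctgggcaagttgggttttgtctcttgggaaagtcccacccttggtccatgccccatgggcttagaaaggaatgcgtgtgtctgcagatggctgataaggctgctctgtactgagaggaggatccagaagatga
Krt8: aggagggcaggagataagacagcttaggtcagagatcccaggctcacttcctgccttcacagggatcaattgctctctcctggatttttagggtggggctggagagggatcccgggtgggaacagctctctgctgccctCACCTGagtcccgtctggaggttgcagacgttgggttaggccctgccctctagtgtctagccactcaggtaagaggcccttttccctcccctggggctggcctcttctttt
Krt18: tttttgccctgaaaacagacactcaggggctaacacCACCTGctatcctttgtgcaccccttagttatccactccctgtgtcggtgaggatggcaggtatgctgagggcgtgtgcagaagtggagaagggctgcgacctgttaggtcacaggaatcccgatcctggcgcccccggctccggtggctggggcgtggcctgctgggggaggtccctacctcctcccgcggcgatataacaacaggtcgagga
Both strands were searched for 5 motifs, the TATA box (TATAAA), the GC box (GGGCGG), the AP-1 site (TGANTCA), the CCAAT box (CCAAT) and an E-box core (CACCTG), the last added after the data were seen. The E-box core CACCTG stood 128 to 123 bases before the start in Krt5, 111 to 106 in Krt8 and 214 to 209 in Krt18, and also in Krt7. Krt7 further held GGGCGG at 4 places. None of the 5 motifs was in the Krt14 window. Over 27025 mouse promoter windows of 250 bases, 17.1% held CACCTG, 32.9% GGGCGG, 34.5% CCAAT, 13% TATAAA and 6.87% TGANTCA. A match is a description of these letters, and basal and luminal keratins both held CACCTG.

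Krt5, the type II keratin of basal cells, was the member most restricted to the basal-like cells. Its summed level there was 515 CPM in COL1 (95% Poisson interval 487 to 544), 885 CPM in STIFF (853 to 918), 634 CPM in MATR (603 to 665) and 495 CPM in SOFT (457 to 536). In HR-positive cells it lay between 1.75 and 3.17 CPM, with 17 to 48 UMIs a condition. It reached 20.8 CPM in COL1, 26.1 CPM in STIFF, 11.7 CPM in MATR and 6.86 CPM in SOFT HR-negative cells. Immune-like cells had 11.5, 20.1, 3.35 and 1.43 CPM in the same order, less than HR-negative cells in each condition, and fibroblast-like cells 23.5, 27.3, 5.51 and 0.985 CPM. In every condition the basal-like cells were the class with the highest Krt5. In cluster 9, 2 of the 10 basal markers reached 20 CPM. Krt5 stood there at 0.986 CPM in COL1 from 1 UMI, 11.2 CPM in STIFF, 12.3 CPM in MATR and 1.23 CPM in SOFT. In STIFF, 24 of its 29 UMIs came from 1 cell.

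Krt14, the type I partner of Krt5, was spread over more classes. Basal-like cells held 1125 CPM in COL1 (1084 to 1168), 1680 CPM in STIFF (1636 to 1726), 1055 CPM in MATR (1016 to 1096) and 1409 CPM in SOFT (1343 to 1476). Cluster 9 came next with 706, 1011, 599 and 775 CPM in the same order, and its intervals did not overlap those of basal-like cells in any condition. HR-negative cells followed with 159, 256, 114 and 134 CPM. Those levels stood above the 85.3, 148, 35.8 and 22.8 CPM of immune-like cells in the same conditions. HR-positive cells were the lowest of the luminal classes, at 15.9, 16.3, 13.6 and 32.6 CPM, which in SOFT was above the immune-like level.

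Krt17 did not keep 1 order of classes. In basal-like cells it was 403 CPM in COL1 (379 to 429), 539 CPM in STIFF (514 to 565), 319 CPM in MATR (298 to 342) and 516 CPM in SOFT (477 to 558). In cluster 9 it was 471 CPM in COL1 (430 to 515), 1409 CPM in STIFF (1363 to 1455), 94.8 CPM in MATR (71.2 to 124) and 278 CPM in SOFT (258 to 300). By summed level, cluster 9 therefore exceeded basal-like cells in COL1 and STIFF and fell short of them in MATR and SOFT. The median cell of cluster 9 held less than that of basal-like cells in every condition. It had 0, 257, 0 and 0 CPM in the order COL1, STIFF, MATR and SOFT, against 182, 309, 241 and 344 CPM. A small part of the cells held much of this RNA in cluster 9. Of 73 STIFF cells in cluster 9, 7 held 50% of the 3644 Krt17 UMIs, with 664 in the highest cell, and the level without the top 4 cells was 972 CPM. In COL1, 3 of 80 cells held 50%, and the level without the top 4 cells was 214 CPM, below the basal-like level. HR-negative cells had 34.0, 48.6, 7.92 and 15.3 CPM and HR-positive cells 11.5, 20.4, 5.82 and 35.7 CPM in the order COL1, STIFF, MATR and SOFT.

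**Figure D1:**
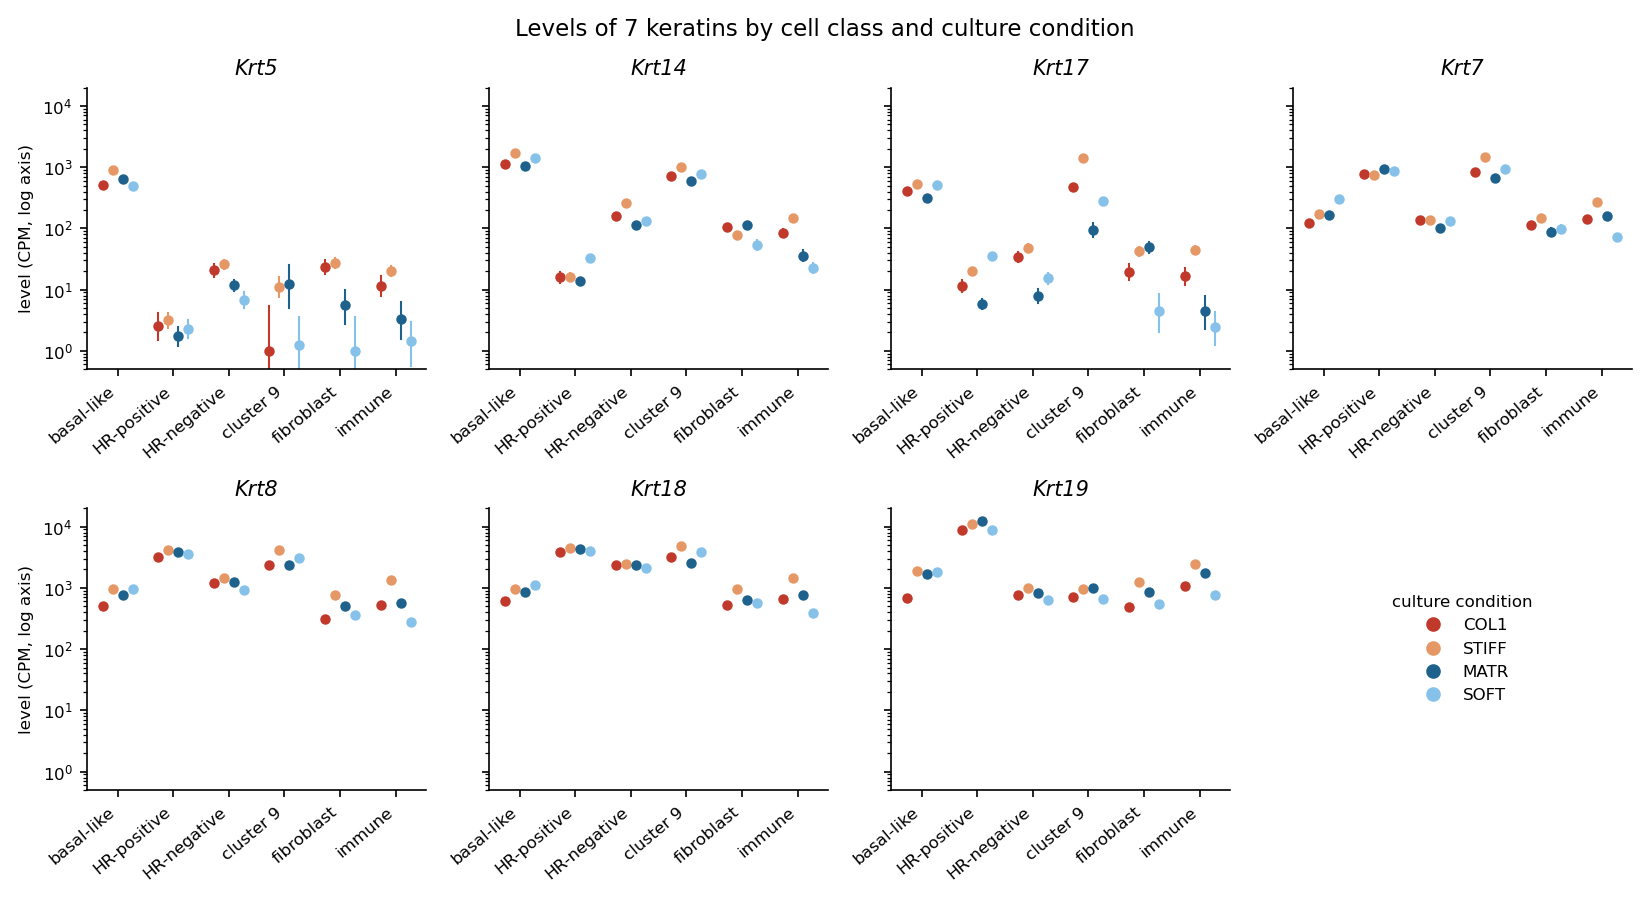
Summed level (CPM, log axis) of each keratin in each cell class, 1 point per condition, with 95% Poisson intervals for counting error; values under 0.5 CPM are drawn at the bottom of the axis. Krt5 sits between 495 and 885 CPM in basal-like cells and below 30 CPM in every other class drawn, while Krt14 and Krt17 are also high in cluster 9.

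Krt8, the type II keratin of luminal cells, was highest in HR-positive cells, at 3197 CPM in COL1, 4099 CPM in STIFF, 3863 CPM in MATR and 3611 CPM in SOFT. Cluster 9 was as high in STIFF (4178 CPM, 4100 to 4258) and lower elsewhere (2331, 2325 and 3026 CPM in COL1, MATR and SOFT). HR-negative cells held 1219, 1467, 1231 and 927 CPM. Its type I partner Krt18 had the same order of classes in COL1, MATR and SOFT, with 3892, 4334 and 4050 CPM in HR-positive cells, 3172, 2589 and 3920 in cluster 9 and 2331, 2367 and 2121 in HR-negative cells. In STIFF, Krt18 was highest in cluster 9 (4787 CPM, against 4423 in HR-positive and 2482 in HR-negative cells).

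Krt7 set HR-positive cells and cluster 9 apart from HR-negative cells. It was 765, 758, 949 and 853 CPM in HR-positive cells in the order COL1, STIFF, MATR and SOFT, and 821, 1456, 673 and 916 CPM in cluster 9. HR-negative cells had 135, 139, 103 and 133 CPM, a range that immune-like cells shared (140, 266, 157 and 71.7 CPM). Krt19 was the keratin of HR-positive cells by level, at 8772, 10873, 12217 and 8971 CPM. In HR-negative cells it was 780, 1014, 820 and 631 CPM, and in cluster 9 717, 966, 984 and 667 CPM. The intervals of these last 2 classes overlapped in COL1, STIFF and SOFT.

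The share of each keratin among the UMIs of all 7 describes the same pattern without reference to other genes. The 3′ counts are not divided by transcript length, and all cells of a channel were used here whether tagged or not, in the order COL1 with STIFF and then MATR with SOFT. In HR-positive cells Krt19 held 53.4% and 54.7% of keratin UMIs, and the 3 basal keratins together 0.264% and 0.260%. In HR-negative cells Krt18 led with 45.9% and 50.8%, and the basal keratins held 4.63% and 3.13%. In basal-like cells the basal keratins held 61.6% and 45.0%, led by Krt14 with 34.1% and 24.7%. In cluster 9 they held 17.4% and 11.6%, of which Krt5 was 0.110% and 0.0570%.

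The luminal keratins were also counted in basal-like cells. Krt8 was 499 CPM in COL1 (471 to 527), 953 CPM in STIFF (920 to 988), 761 CPM in MATR (727 to 796) and 945 CPM in SOFT (891 to 1000). Krt18 was 620, 953, 857 and 1123 CPM, Krt19 688, 1878, 1689 and 1831 CPM and Krt7 125, 173, 164 and 298 CPM in the same order. Immune-like cells held 529, 1325, 570 and 273 CPM of Krt8 and 1088, 2476, 1759 and 768 CPM of Krt19. By summed level, basal-like Krt8 stood below immune-like Krt8 in COL1 and STIFF and above it in MATR and SOFT. Basal-like Krt19 stood below immune-like Krt19 in COL1, STIFF and MATR and above it in SOFT. Without the 5% of cells with the most Krt8 UMIs, the Krt8 order turned in COL1 (305 CPM in basal-like and 259 CPM in immune-like cells). It stayed in STIFF (656 and 941 CPM), MATR (446.5 and 282 CPM) and SOFT (700 and 125 CPM). The order of Krt19 stayed in all 4 conditions without its own top 5% of cells.

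A small part of the basal-like cells held much of this luminal keratin RNA. The median cell held 213 CPM of Krt8 CPM in COL1, 221 CPM in STIFF, 234 CPM in MATR and 289 CPM in SOFT, while the 90th percentile was 833, 2830, 1544 and 2278 CPM. For Krt19 the median was 100.5, 98, 89.8 and 141 CPM and the 90th percentile 1034, 6841, 5512 and 5052 CPM. Median levels differed far less between conditions than the summed levels did. The top 5% of basal-like cells held 47.4%, 35.8%, 46.1% and 31.5% of the Krt8 UMIs in the order COL1, STIFF, MATR and SOFT. In immune-like cells the top 5% held 56.9%, 37.5%, 56.0% and 58.2%. The 10 HR-positive luminal markers summed to 747, 1321, 984 and 1428 CPM in basal-like cells, against 6415 to 8628 CPM in HR-positive cells. The 10 HR-negative markers summed to 7025, 4899, 5278 and 5257 CPM in basal-like cells, highest in COL1, where the luminal keratins were lowest, against 41773 CPM in HR-negative cells. Immune-like cells, pooled over conditions, held 5626 CPM of that list. At a finer clustering, 100 tagged basal-like cells formed a cluster with a median doublet score of 0.248, against 0.0234 in the other basal-like cluster. Their part in the luminal keratin levels was tested only by leaving out the cells with the highest doublet scores, as given below.

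Detection was compared with every cell thinned to 5000 UMIs, since basal-like cells had a median of 8150.5 UMIs in COL1 and 16786 in STIFF. Shallower cells were left out (39 of 631 basal-like cells). Of 592 basal-like cells, 94.1% had a UMI of Krt14, 85.3% of Krt5 and 66.7% of Krt17. The luminal keratins followed with 68.2% for Krt8 (Clopper-Pearson interval 64.3 to 72.0), 63.5% for Krt18, 47.1% for Krt19 and 29.9% for Krt7. The shares in 798 immune-like cells were 39.8% for Krt8, 48.9% for Krt18, 51.1% for Krt19 and 21.8% for Krt7. By condition, Krt19 was seen in 45.3%, 48.2%, 47.0% and 50% of basal-like cells and 54.5%, 60.3%, 48.3% and 42% of immune-like cells in the order COL1, STIFF, MATR and SOFT. In COL1, STIFF and MATR the basal-like share was below that in cells that should lack Krt19, and in SOFT it was above it. The intervals overlapped in all 4 conditions, with 38.0 to 52.6 and 46.0 to 62.8 in COL1 and 40.3 to 56.1 and 53.9 to 66.5 in STIFF. They were 39.2 to 54.9 and 40.1 to 56.6 in MATR and 38.0 to 62.0 and 35.9 to 48.3 in SOFT. No Krt19 above this background is therefore read in basal-like cells, and the source of their Krt19 RNA was not tested. For Krt8 the basal-like share was above the immune-like one in all 4 conditions (71.1% and 37.9% in COL1, 68.3% and 56.3% in STIFF, 62.7% and 38.3% in MATR, 73.6% and 26.1% in SOFT). In COL1 and STIFF the summed CPM of Krt8 went the other way, so no order is read there. Without the highest doublet scores, 63.0% of basal-like and 31.6% of immune-like cells had Krt8, and 57.1% and 41.7% had Krt18. For Krt19 these shares were 38.2% and 44.5%. Before thinning, 85.3% of basal-like cells in COL1, 91.6% of those in STIFF, 85.4% of those in MATR and 88.0% of those in SOFT had a UMI of Krt8.

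In the luminal classes the basal keratins differed in how often they were seen. Krt14 was found in 37.7% of 879 HR-negative cells, 5.69% of 3761 HR-positive cells and 10.2% of immune-like cells. By condition, Krt14 was seen in 36.0% of COL1, 48.4% of STIFF, 31.4% of MATR and 38.6% of SOFT HR-negative cells. Krt5 was found in 4.32% of HR-negative cells and 1.22% of HR-positive cells, against 1.63% of immune-like and 4.10% of fibroblast-like cells. In HR-positive cells it is therefore not read as above background. The HR-negative interval (3.08 to 5.89) lay above the immune-like one (0.870 to 2.77) and overlapped the fibroblast-like one. By condition, Krt5 was seen in 5.14%, 10.1%, 2.29% and 1.43% of HR-negative cells in the order COL1, STIFF, MATR and SOFT. Fibroblast-like cells had 4.96% and 8.11% in COL1 and STIFF and 0 of 97 and 0 of 77 cells in MATR and SOFT, which allows shares of up to 3.09% and 3.90%. The part of RNA from other cells in these shares was not tested. Krt17 was found in 6.26% of HR-negative and 3.43% of HR-positive cells, against 3.76% of immune-like cells. In cluster 9, 80% of 285 cells had Krt14 and 34.7% had Krt17, but 1.05% had Krt5. Its Krt17 share was 56.9% in STIFF, 34.2% in SOFT, 19.4% in COL1 and 18.5% in MATR. Before thinning, the shares with Krt14 in HR-negative cells were 57.4% of COL1, 80.9% of STIFF, 63.3% of MATR and 73.4% of SOFT cells, and the median depth there ran from 15297 UMIs in COL1 to 27168.5 in SOFT.

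**Figure D2:**
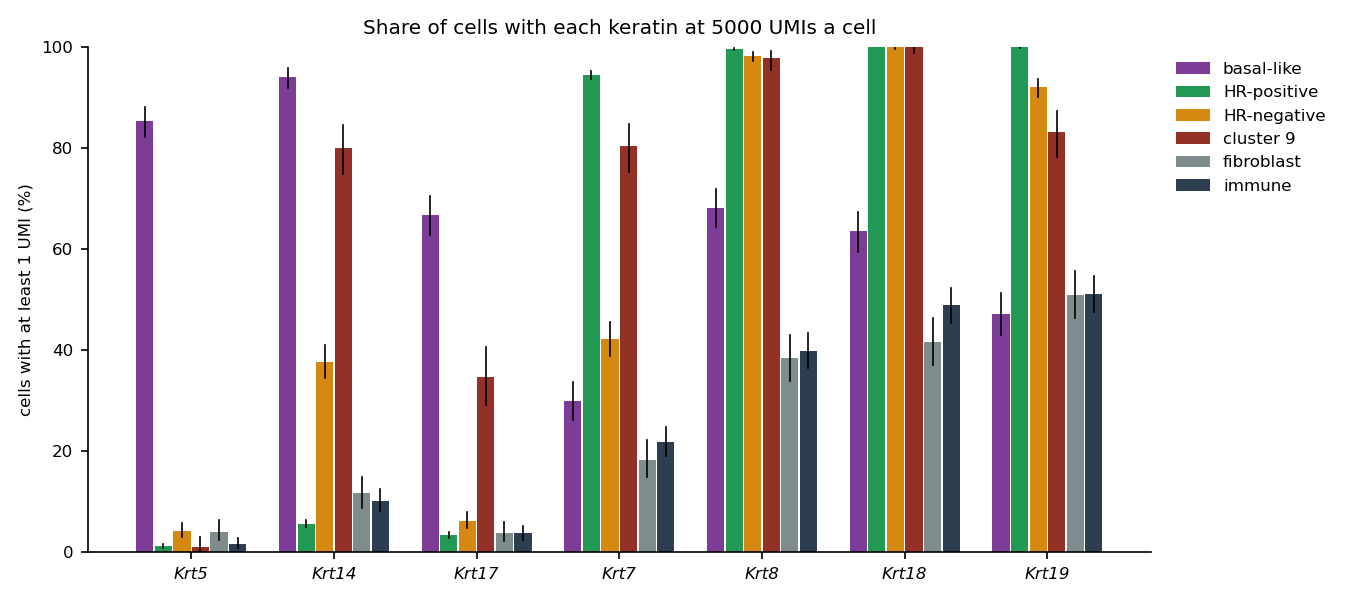
Share of cells (percent, with 95% Clopper-Pearson intervals) that have at least 1 UMI of each keratin after thinning to 5000 UMIs, by cell class over the 4 conditions. Luminal keratins reach 21.8% to 51.1% in immune-like cells, while Krt5 stays at 1.63% there and at 85.3% in basal-like cells.

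Pairs of keratins were then read within cells at the same depth. Krt5 and Krt8 were seen together in 56.8% of basal-like cells (52.7 to 60.8), and the product of their single shares was 58.2%. The pair was therefore seen about as often as 2 unrelated genes of those shares would be. It was seen in 1.25% of immune-like, 1.22% of HR-positive, 4.10% of HR-negative and 1.05% of cluster 9 cells, and in 10.4% of barcodes positive for both tags, which are known doublets. Those barcodes came from all classes, and of 582 only 29 fell among basal-like cells. Their shares here and below are therefore not those of doublets that hold a basal-like cell. The basal share of Krt5 with Krt8 followed depth, with 26.2% at 2000 UMIs and 81.4% at 10000 UMIs. Without thinning it was 33.3% in cells of 1000 to 5000 UMIs, 70.6% from 5000 to 10000, 85.5% from 10000 to 20000 and 95% above 20000.

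Krt5 with Krt14, the basal filament pair, was seen in 81.8% of basal-like cells (product 80.3%) and Krt14 with Krt17 in 64.4% (product 62.8%). Krt14 with Krt8, 1 gene of each lineage, was seen in 63.9% of basal-like cells (product 64.2%), 78.9% of cluster 9 (73.7 to 83.5), 37.2% of HR-negative cells (34.0 to 40.5) and 5.66% of HR-positive cells. It was at 6.02% in immune-like cells and 33.9% in barcodes with both tags. In cluster 9, Krt14 with Krt17 was seen in 33.0% of cells (product 27.8%). Krt8 with Krt18, the luminal filament pair, was seen in 48.3% of basal-like cells (product 43.3%) and 30.6% of immune-like cells (product 19.5%). The excess of the luminal pair over the product was thus 1.11-fold in basal-like and 1.57-fold in immune-like cells. The highest possible excess falls as the single shares rise, and these were higher in basal-like cells. The 2 values are therefore not set against each other.

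Amounts within cells were described by Spearman correlations at 5000 UMIs. Each was taken across the cells of a class, pooled over the 4 conditions and so over both channels. These cells are not independent samples, and differences between conditions enter the values. In 592 basal-like cells, Krt5 rose with Krt14 (0.37) and Krt14 with Krt17 (0.30). Krt5 was lower where luminal keratins were higher, with values from -0.30 for Krt18 to -0.20 for Krt19. The luminal keratins went together, from 0.48 for Krt7 with Krt19 to 0.56 for Krt8 with Krt18. In 285 cells of cluster 9, Krt17 went with Krt8 (0.64), Krt7 (0.61) and Krt18 (0.57) more than with the basal keratin Krt14 (0.40), and weakly with Krt19 (0.14). The median cell of cluster 9 was highest in STIFF for Krt17, Krt8 and Krt7 (257, 3182 and 976 CPM) and in SOFT for Krt18 (2912 CPM). The part of such differences between conditions in these correlations was not tested. In immune-like cells the pairs among Krt7, Krt8, Krt18 and Krt19 had 0.61 to 0.69, and Krt17 with Krt7, Krt8 and Krt18 had 0.12 to 0.14.

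**Figure D3:**
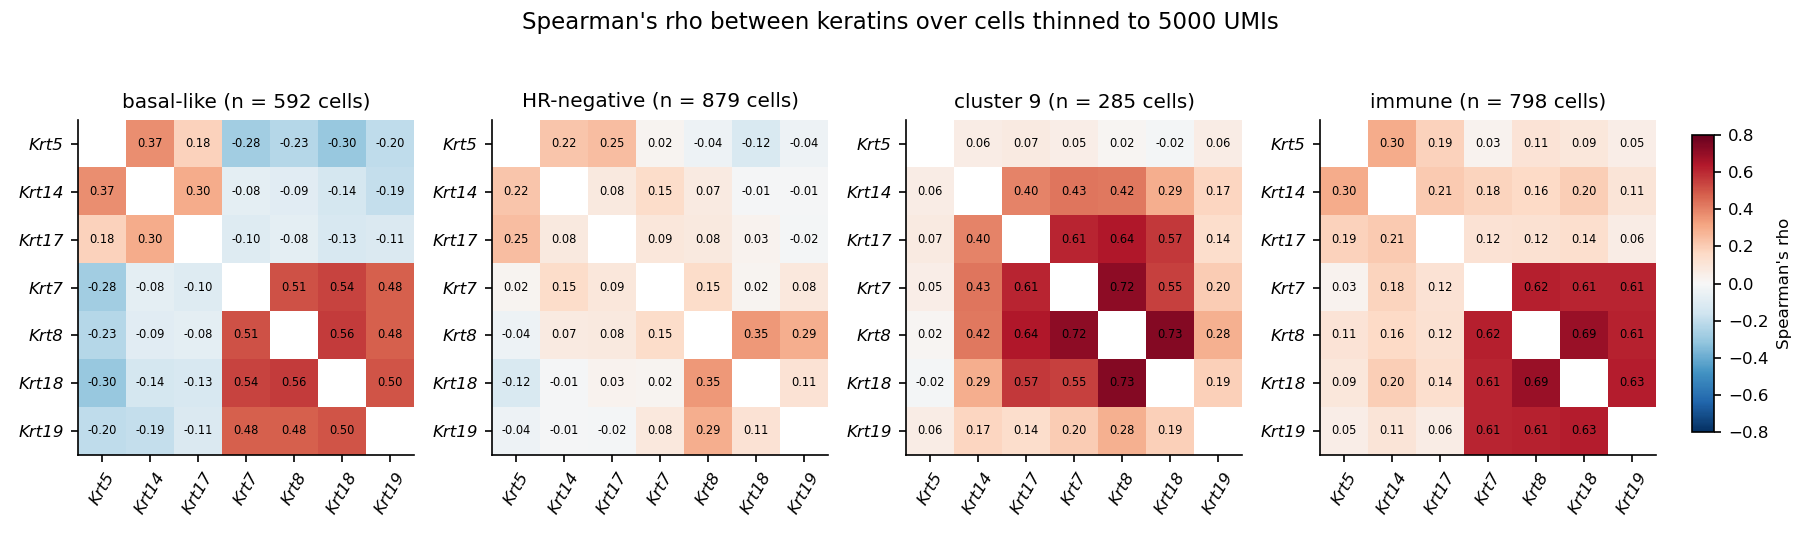
Spearman correlation (colour and printed value) between the 7 keratins across cells thinned to 5000 UMIs and pooled over the 4 conditions, in 1 panel per class. In basal-like cells the basal and luminal keratins form separate blocks with negative values between Krt5 and the luminal keratins, and in cluster 9 Krt17 groups with Krt7, Krt8 and Krt18.

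A mixed keratin content was measured per cell as a share of 20% to 80% basal keratins among at least 10 UMIs of the 7 genes. This is a range and not a cell type. In basal-like cells it applied to 52.6% of COL1 cells (44.9 to 60.3, 90 of 171 cells), 16.3% of STIFF cells (11 to 22.8, 27 of 166), 38.9% of MATR cells (31.3 to 46.9) and 43.5% of SOFT cells (31.6 to 56.0). STIFF was lowest and its interval did not overlap the other 3. Within 5 percentage points of a bound lay 46, 37, 40 and 16 cells. With bounds of 10% and 90% the shares were 82.5%, 57.8%, 72.8% and 66.7%, and at 5000 UMIs 45.0%, 19.1%, 43.2% and 31.7%. The relative tag rule divides a tag by its background level, and the margin rule asks for a clear lead of 1 tag. STIFF stood at 25.2% (22.0 to 28.6) under the relative rule, beside 52.7%, 38.5% and 49.3% in COL1, MATR and SOFT. Under the margin rule it was 29.2% (26.3 to 32.2), beside 56.0%, 42.7% and 50.3%. STIFF was lowest in each of these settings. Its interval overlapped that of SOFT at 5000 UMIs (13.3 to 26.1 and 20.3 to 45.0), and those of MATR and SOFT with bounds of 10% and 90%. Median depth also differed, at 9494, 17009, 11760 and 15498 UMIs in the order COL1, STIFF, MATR and SOFT.

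The STIFF cells lay at both ends of the scale. More than 80% basal keratins were found in 63.3% of STIFF cells, 39.8% of COL1, 48.1% of MATR and 39.1% of SOFT cells. Less than 20% were found in 20.5% of STIFF, 7.60% of COL1, 13% of MATR and 17.4% of SOFT cells. Mixed content was rare in HR-positive cells, with 0 of 522 in COL1, 1 of 1072 in STIFF, 0 of 1240 in MATR and 1 of 1020 in SOFT. The counts of 0, taken to allow up to 3 cells, allow shares of up to 0.575% in COL1 and 0.242% in MATR. It applied to 6.67%, 8.51%, 3.17% and 2.84% of HR-negative cells and to 23.1%, 30.6%, 11.1% and 14.0% of cluster 9 in the order COL1, STIFF, MATR and SOFT. Many cells of cluster 9 lay near the lower bound, with 9, 25, 2 and 23 within 5 percentage points of a bound beside 18, 22, 3 and 16 mixed cells. Barcodes with both tags had 5.13% (3.46 to 7.29). Of these barcodes, 4.98% fell among basal-like cells, so the value is not the mixed share of doublets that hold a basal-like cell.

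**Figure D4:**
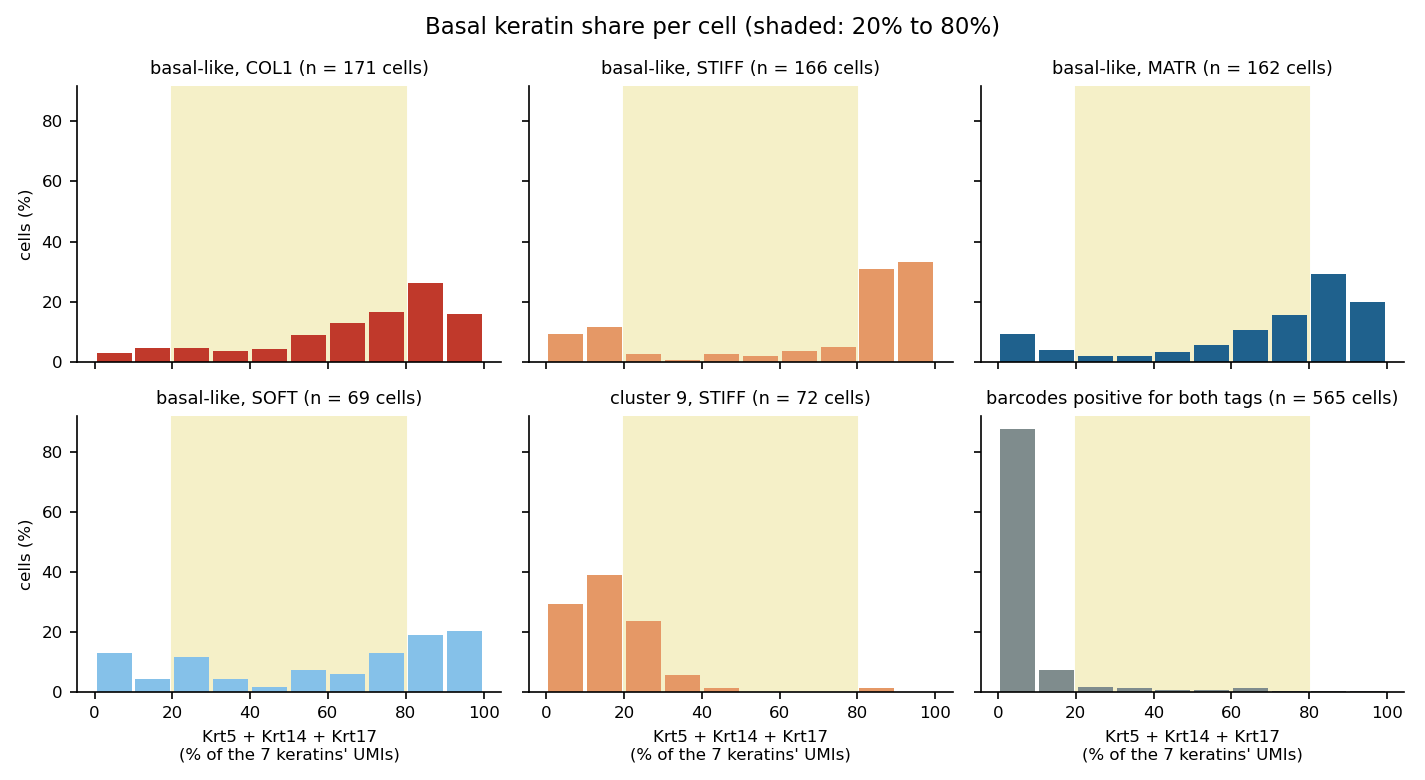
Distribution of the basal keratin share (percent of the UMIs of the 7 keratins, cells with at least 10) as a histogram of cells (percent) in basal-like cells of each condition, in cluster 9 of STIFF and in barcodes with both tags, with the range of 20% to 80% shaded. The mixed share of basal-like cells is 16.3% in STIFF and 38.9% to 52.6% in the other conditions.

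Levels were then compared between conditions within a class. A keratin was called apart when log2(CPM + 10) differed by at least 1.5-fold, and only genes of at least 5 CPM in 1 of both conditions counted as measured, which left Krt5 out in HR-positive cells. Classes needed 100 cells in both conditions, so basal-like cells of SOFT (75 cells) and cluster 9 were not compared. The share of all measured genes called in the same comparison is given as the background. In all, 17 values were called over 4 comparisons.

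COL1 over STIFF, within 1 channel, sets collagen against the stiff matrix. In basal-like cells 4 of 7 keratins were called lower in COL1 and 0 higher, where 1.49% of all 10306 measured genes were called lower and 1.45% higher. The median log2 ratio of the 7 was -0.61, against -0.04 over all genes. Krt5 was 1.72-fold lower in COL1 (1.61 to 1.84, log2 ratio -0.77), and its median over cells was 442 CPM in COL1 and 847 in STIFF. This value lay between -0.94 and -0.68 under every alternative run. The other basal keratins were not called but were also lower in COL1. Their medians over cells were 836 CPM in COL1 and 1482 CPM in STIFF for Krt14, and 182 and 309 CPM for Krt17. The 3 luminal keratins called were Krt19 (2.73-fold lower, 2.59 to 2.88, log2 -1.44), Krt8 (1.91-fold, 1.79 to 2.04, log2 -0.92) and Krt18 (1.54-fold, 1.45 to 1.64, log2 -0.61). Their medians over cells did not show this, with 100.5 and 98 CPM of Krt19 and 235 and 181 CPM of Krt18 in COL1 and STIFF. Immune-like cells moved the same way, with 1088 and 2476 CPM of Krt19 and 529 and 1325 CPM of Krt8. Without the highest doublet scores the log2 ratio was -0.74 for Krt19, -0.17 for Krt8 and 0.14 for Krt18, so that Krt18 turned and Krt8 was no longer called. Under the relative tag rule, these values were -0.34, -0.12 and 0.26.

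In HR-negative cells Krt14 was 1.62-fold lower in COL1 than in STIFF (1.47 to 1.79, log2 -0.66), and the other 6 keratins were not called. Background calls were 0.366% lower and 0.305% higher. Immune-like cells had 85.3 and 148 CPM of Krt14. In HR-positive cells 0 of 6 measured keratins were called, beside 0.765% of genes lower and 1.03% higher. The largest difference there was Krt17, at 11.5 CPM in COL1 and 20.4 CPM in STIFF.

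COL1 over MATR sets collagen against Matrigel across channels. In basal-like cells Krt19 was 2.45-fold lower in COL1 (2.32 to 2.60, log2 -1.28) and Krt8 1.53-fold lower (1.42 to 1.64, log2 -0.60). The other 5 members were not called, beside 0.993% of genes called lower and 1.18% higher. Without the highest doublet scores the log2 ratio was -0.39 for Krt19 and 0.089 for Krt8, so neither was called and Krt8 turned. Krt19 in immune-like cells was 1.62-fold lower in COL1 (1.54 to 1.69). Krt5 (515 and 634 CPM) and Krt14 (1125 and 1055 CPM) stayed within 1.5-fold in basal-like cells.

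In HR-negative cells Krt17 was 4.29-fold higher in COL1 than in MATR (34.0 and 7.92 CPM, 3.15 to 5.90, log2 1.30), the only 1 of 7 called, beside 0.784% of genes higher and 0.234% lower. Of 183 COL1 cells 6 held 50% of these UMIs, and without the top 5% of cells the levels were 13.3 and 2.74 CPM. The value stayed above 1.5-fold under every alternative run, from 0.94 to 2.59 on the log2 scale. Immune-like cells had 16.4 and 4.47 CPM of Krt17. The basal marker list summed to 247 CPM in COL1 and 85.7 CPM in MATR HR-negative cells, and its part in the result was not tested. In HR-positive cells 0 of 6 were called, beside 0.971% of genes higher and 0.418% lower.

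STIFF over SOFT sets the stiff against the soft matrix across channels. In HR-negative cells 5 of 7 keratins were called higher in STIFF and 0 lower, where 1.69% of genes were called higher and 1.04% lower. The median log2 ratio of the 7 was 0.68, against -0.0021 over all genes. The basal keratins were Krt5 (26.1 and 6.86 CPM, log2 1.10), Krt14 (256 and 134 CPM, 1.91-fold, 1.76 to 2.08, log2 0.89) and Krt17 (48.6 and 15.3 CPM, 3.18-fold, 2.51 to 4.05, log2 1.21). The luminal keratins were Krt8 (1467 and 927 CPM, 1.58-fold, 1.53 to 1.64) and Krt19 (1014 and 631 CPM, 1.61-fold, 1.54 to 1.67). Krt18 (2482 and 2121 CPM) and Krt7 (139 and 133 CPM) were not called. Without the top 5% of cells Krt14 was 197 and 99.4 CPM, Krt17 20.1 and 3.84 CPM and Krt5 10.4 and 0.166 CPM.

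Immune-like cells differed by more for each of these genes. They had 148 and 22.8 CPM of Krt14 in STIFF and SOFT, 44.9 and 2.45 CPM of Krt17, 1325 and 273 CPM of Krt8 and 2476 and 768 CPM of Krt19. The basal marker list summed to 338 CPM in STIFF and 53.1 CPM in SOFT HR-negative cells. The part of RNA from other cells in the HR-negative difference was not tested. Under the relative tag rule 1 keratin of the 7 called in this comparison over both luminal classes was still called, Krt5 in HR-negative cells. Under the margin rule 3 were, Krt5 and Krt17 in HR-negative and Krt17 in HR-positive cells. Krt5 in HR-negative cells had a log2 ratio of 0.33 without the highest doublet scores.

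In HR-positive cells of the same comparison the order was the opposite. Krt14 was 2.0-fold lower in STIFF than in SOFT (16.3 and 32.6 CPM, 1.71 to 2.34, log2 -0.70) and Krt17 1.75-fold lower (20.4 and 35.7 CPM, 1.52 to 2.02, log2 -0.59), beside 1.51% of genes lower and 1.61% higher. The 4 luminal keratins were not called. In SOFT, 6 of 1020 cells held 50% of the Krt17 UMIs and 10 held 50% of the Krt14 UMIs. Without the top 5% of cells, ranked by the same gene, Krt14 was 6.05 CPM in STIFF and 5.30 in SOFT, and Krt17 2.94 and 2.40 CPM. The cells left out held 65.2% and 84.8% of the Krt14 UMIs and 86.4% and 93.7% of the Krt17 UMIs. No order is read from the low levels that remain. Different clusters filled the HR-positive class in STIFF and SOFT, with cluster 1 holding 766 of 1075 STIFF cells and 201 of 1020 SOFT cells, and cluster 3 holding 280 and 468. Within cluster 3, Krt14 was 32.7 CPM in STIFF and 57.4 in SOFT, and Krt17 39.8 and 66.0 CPM. Within cluster 1, Krt14 was 9.75 and 6.71 CPM and Krt17 13 and 7.42 CPM, with overlapping intervals.

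MATR over SOFT, within 1 channel, sets Matrigel against the soft matrix. In HR-positive cells Krt17 was 6.13-fold lower in MATR (5.82 and 35.7 CPM, 4.96 to 7.65, log2 -1.53) and Krt14 2.40-fold lower (13.6 and 32.6 CPM, 2.05 to 2.82, log2 -0.85), beside 1.36% of genes lower and 0.971% higher. Both stayed past 1.5-fold under every alternative run, from -2.43 to -1.20 for Krt17 and from -1.21 to -0.60 for Krt14. Without the top 5% of cells the levels were 0 and 2.40 CPM of Krt17 and 3.68 and 5.30 CPM of Krt14. Cluster 1 held 723 of 1242 MATR cells and cluster 3 held 167. Within cluster 3, Krt17 was 11.3 CPM in MATR and 66.0 CPM in SOFT, and Krt14 36.4 and 57.4 CPM. Within cluster 1, Krt17 was 6.17 and 7.42 CPM and Krt14 10.5 and 6.71 CPM, both with overlapping intervals, so that Krt14 was lower in MATR in cluster 3 but not in cluster 1. In HR-negative cells 0 of 7 were called, beside 0.656% of genes higher and 0.625% lower.

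**Figure D5:**
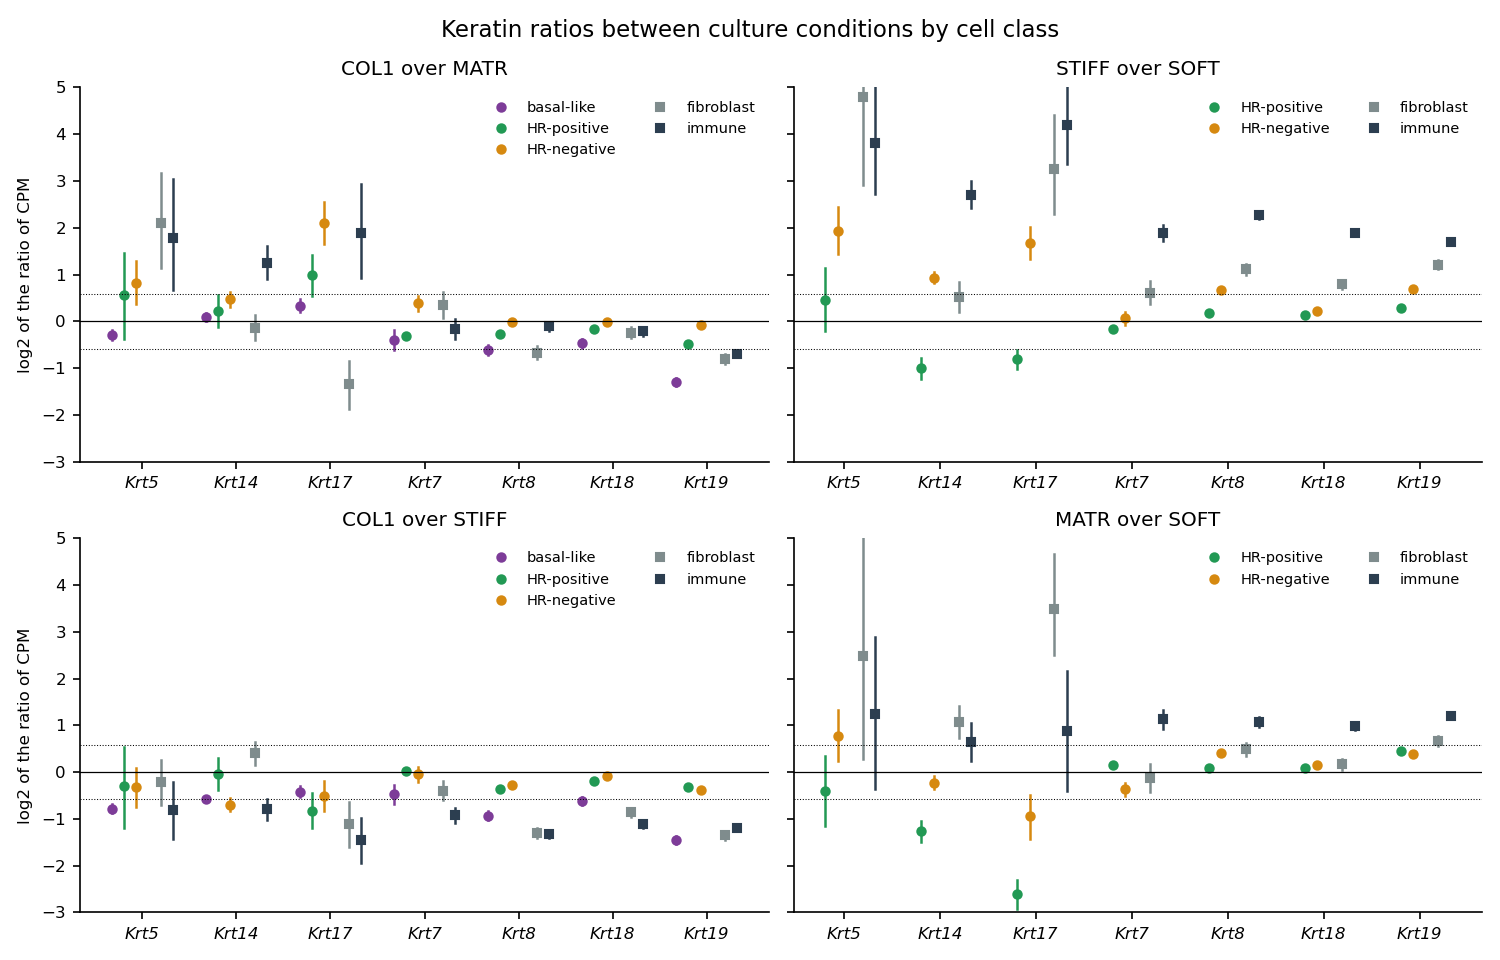
Log2 ratio of CPM, without the pseudocount, for each keratin in each comparison and class, with immune-like and fibroblast-like cells as squares, 95% counting intervals clipped to the axis and dotted lines at 1.5-fold. In STIFF over SOFT, Krt14 and Krt17 lie above the upper line in HR-negative cells and below the lower line in HR-positive cells, and in COL1 over STIFF the basal-like cells fall below it for Krt5, Krt8, Krt18 and Krt19.

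The relative tag rule assigned more cells and allowed basal-like cells of SOFT to be described, with 721 cells in STIFF, 290 in MATR and 373 in SOFT. Krt5 was 953 CPM in STIFF, 631 CPM in MATR and 547 CPM in SOFT. Krt14 was 2049, 1127 and 1419 CPM and Krt17 787, 307 and 631 CPM in the same order. The luminal keratin Krt8 was 512, 581 and 508 CPM and Krt19 748, 1168 and 674 CPM.

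The genes with the most similar profile to each member were found over 28 profiles of class by condition, by Pearson correlation of log2(CPM + 10). These correlations are descriptions over profiles that share classes and libraries. Krt5 was closest to Wif1 (0.99), a secreted Wnt inhibitor, Lmo1 (0.98) and Brinp1 (0.98). Krt14 was closest to Cavin2 (0.97), Mme (0.94), the membrane protease also called CD10, and Chadl (0.94), and Krt17 to Trp53 (0.91), Snrpg (0.90) and Aopep (0.90). Krt8 was closest to Lad1 (0.95), Wfdc2 (0.94), which encodes a secreted protein, and the claudin Cldn7 (0.94), and Krt18 to Cldn7 (0.99), Tmc4 (0.97) and Cldn3 (0.97). Krt7 was closest to Wnt7b (0.96), Prss22 (0.94) and Pak1 (0.94), and Krt19 to Cyp3a57 (0.97), Tspan13 (0.97) and the prolactin receptor Prlr (0.97), which is one of the HR-positive markers. Among the members, Krt8 with Krt18 had 0.97, Krt14 with Krt17 0.91 and Krt7 with Krt8 0.91, while Krt5 with Krt14 had 0.71 and Krt14 with Krt19 -0.44.

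Of the 42 other keratin genes, 2 to 6 were measured in each class and comparison. Krt4 (312 CPM), Krt78 (153 CPM) and Krt79 (75.3 CPM) marked HR-positive cells, and Krt15 (79.5 CPM) and Krt71 (29.1 CPM), a hair follicle keratin, basal-like cells. In HR-positive cells 4 of 5 measured were called higher in MATR than in SOFT and 0 lower (0.971% and 1.36% of all genes), with Krt78 at 270 and 73.2 CPM (log2 1.75) and Krt10 the lowest (log2 -0.07). In COL1 over MATR, 3 of 5 were called lower in the same class (0.418% of all genes), with Krt78 at 106 and 270 CPM (log2 -1.27), and in STIFF over SOFT 2 of 5 were higher (1.61% of all genes), led by Krt79 (74.0 and 41.1 CPM, log2 0.72). Krt4 and Krt78 are among the leading genes of clusters 1 and 2, so these values are not independent of which cluster filled the class. In basal-like cells 3 of 6 were lower in COL1 than in MATR (0.993% of all genes), with Krt78 at 5.99 and 39.1 CPM (log2 -1.62), and 1 of 6 lower than in STIFF (1.49% of all genes), which was Krt4 (13.6 and 50.8 CPM).

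Desmosomes and hemidesmosomes anchor keratin filaments to neighbouring cells and to the matrix. Of 18 such genes, 14 to 16 were measured in each of the 10 comparisons within a class, and 7 of these comparisons had 0 called. The exceptions were Pkp1, a desmosomal plakophilin, in 3 of them, 1 of 15 genes each time. Pkp1 was lower in STIFF than in SOFT in HR-positive (19.5 and 42.8 CPM, log2 -0.84) and HR-negative cells (16.8 and 33.2 CPM, log2 -0.69), and higher in COL1 than in STIFF in HR-positive cells (39.6 and 19.5 CPM, log2 0.75). All genes were called at 1.51%, 1.04% and 1.03% in these 3 comparisons and directions. Of 9 other intermediate filament genes 4 were measured in each comparison, and at most 1 was called. Vimentin (Vim) was higher in COL1 than in MATR in HR-positive cells (17.7 and 8.14 CPM, log2 0.61; 0.971% of all genes). The nuclear lamin Lmna was higher in STIFF than in SOFT in HR-negative cells (271 and 173 CPM, log2 0.62; 1.69% of all genes). Lmnb1 was lower in COL1 than in MATR (5.99 and 14.6 CPM, log2 -0.62) and in STIFF (16.7 CPM, log2 -0.74) in basal-like cells, where 0.993% and 1.49% of all genes were lower. Of 10 cell cycle genes, 8 were measured in basal-like cells in COL1 over MATR, and 5 were lower in COL1 (0.993% of all genes), with Mki67 at 8.39 and 26.0 CPM (log2 -0.97).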

How the data were processed

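The authors' deposited files hold raw UMI counts per gene and barcode for 2 channels, which per the file headers came from Cell Ranger 5.0.0. Seurat 4.2.0 and mm10 are named in the submitters' processing notes. The selection of barcodes before deposit is not given in the sources used here, and the labels name kits of different chemistry versions. Each channel was deposited as 2 entries with equal gene counts and was read once.

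Kept barcodes had at least 1000 UMIs, 500 genes and no more than 15% of UMIs from mitochondrial genes. Hashtags were called with HTODemux of Seurat 5.3.0 (R 4.3.3, positive quantile 0.99), and barcodes with both tags (305 and 277) or none were left out. Scrublet marked 0 cells in both channels, so as an alternative the cells with the highest scores were left out, to the 8.37% and 6.60% of singlets that the barcodes with both tags imply. Singlets were clustered with scanpy 1.11.5 (2000 variable genes without keratins, 30 components, 15 neighbours, Leiden resolution 0.5). A class needed 3 markers at 20 CPM and 2-fold above the other clusters. A cluster stayed unnamed where another list that met this had at least 0.5 of the leading list's mean log2 ratio to the other clusters. It also did where another list held as many of its 10 leading genes. These rules were set after seeing the data. They kept cluster 8 (162, 533, 306 and 172 cells of COL1, STIFF, MATR and SOFT), with markers of both luminal classes and a median doublet score of 0.121, and the shallow cluster 7 (72, 1, 0 and 4 cells) out of the classes, beside cluster 9.

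Counts were summed per class and condition and scaled to CPM. Levels have exact Poisson, shares Clopper-Pearson and ratios conditional binomial intervals, all at 95%. Log2 ratios used a pseudocount of 10 CPM and understate changes of low genes. Cells were thinned to 5000 UMIs for detection, co-detection and correlations. All steps but the hashtag calls ran in Python 3.11.15 with matplotlib 3.10.9, igraph 0.11.9, pandas 2.3.3, numpy 2.4.6, scikit-learn 1.9.0 and scipy 1.17.1. The fold calls, the ratio and Poisson intervals and the thinning were tested on simulated counts, and the other steps were not. The members and gene lists were chosen with earlier results of these data known. All 7 members are named. For each, the 3 genes with the most similar profile (at least 50 CPM in 1 profile of at least 50 cells, without keratins) are named, and of each other list the members with the largest and smallest ratio. Alternatives were the relative rule (a 2-fold lead of 1 tag once both are divided by a background set at the 10th percentile after seeing the data), the margin rule (at least 3 times the smaller and 50 counts), other clusterings, scalings, depths, pseudocounts and keratin bounds, and leaving out the cells with the highest doublet scores. Levels without the top 5% of cells and detection without the highest doublet scores were added after seeing the data.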

Additional observations from a re-analysis of the deposited data

Results flagged for a closer look

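Krt14 and Krt17 differed in opposite directions between STIFF and SOFT in the 2 luminal classes. The log2 ratio of STIFF over SOFT was 0.89 in HR-negative and -0.70 in HR-positive luminal-like cells for Krt14, and 1.21 and -0.59 for Krt17. The difference between the classes was not tested, since each condition was 1 culture. The HR-positive side rested on few cells, with 6 of 1020 SOFT cells holding 50% of the Krt17 UMIs, and without the top 5% of cells Krt17 was 2.94 CPM in STIFF and 2.40 CPM in SOFT. On the HR-negative side, immune-like cells had 148 CPM of Krt14 in STIFF and 22.8 CPM in SOFT, and the part of RNA from other cells was not tested. Under the relative tag rule the values were 0.53 and -0.25 for Krt14 and 0.50 and -0.36 for Krt17, each in the same direction but within 1.5-fold.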

How the results depend on the processing

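No paired analysis was possible because each condition was 1 culture. Depth limits detection, as Krt5 and Krt8 were seen together in 26.2% of basal-like cells at 2000 UMIs, 56.8% at 5000 and 81.4% at 10000, and in 26.0% when 2 UMIs of each gene were asked for. Of the 17 called values, 16 kept their direction and 7 stayed called under the relative tag rule, 16 and 10 under the margin rule, and 15 and 11 without the highest doublet scores. With keratins kept in the clustering 17 and 15 did, at resolution 1.0 and with the mean of per-cell CPM 17 and 14, and without mitochondrial and ribosomal genes or with trimmed mean scaling 17 and 16. With a pseudocount of 1 CPM or at least 3000 UMIs, all 17 kept both. In COL1 over STIFF, Krt18 in basal-like cells turned from -0.61 to 0.26 under the relative rule, 0.27 under the margin rule and 0.14 without the highest doublet scores. In COL1 over MATR, Krt8 in basal-like cells turned from -0.60 to 0.089 without those scores. The cause was not tested.

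Calls in COL1 over MATR numbered 3, and 6 at resolution 1.0, 5 with a pseudocount of 1 CPM and 1 without the highest doublet scores. In MATR over SOFT the 2 calls became 5 at resolution 1.0, 5 with keratins kept and 4 with a pseudocount of 1 CPM. In COL1 over STIFF the 5 became 8 with keratins kept, and in STIFF over SOFT the 7 became 3 under the margin and 1 under the relative rule. The mixed share of basal-like cells with bounds of 10% and 90% was 82.5% of COL1, 57.8% of STIFF, 72.8% of MATR and 66.7% of SOFT cells, and in STIFF it was 29.2% under the margin and 25.2% under the relative rule.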
